A study of Mus musculus with 12 samples.

Results

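Adipocytes secrete proteins into the blood, called adipokines, and 8 genes that encode such proteins were described here across 4 groups of mouse cells. They were chosen by symbol, with earlier results of these data known, and were Adipoq, Retn, Cfd, Lep, Rbp4, Lrg1, Rarres2 and Nampt. Each has 1 entry among the 24341 genes of the deposited expression table. The cells were C57Bl/6 preadipocytes from adipose tissue, immortalised with SV40, so all 4 groups carry that immortalisation. Acly-/- adipocytes and Aclyf/f adipocytes were taken at day 4, after a standard cocktail that contained rosiglitazone, a drug that activates PPARgamma, had induced differentiation. Acly-/- preadipocytes and Aclyf/f preadipocytes were taken at day 0. Aclyf/f stands for an Acly gene flanked by loxP sites and served as the control, and Acly-/- for its deletion. There were 3 libraries per group, 12 in all. How and when the gene was deleted, and whether libraries came from separate cultures, clones or animals, is not given in the sources used here. P-values therefore reflect the spread between these libraries alone, which may be technical. Rosiglitazone was part of the differentiation step in both genotypes, so its effect cannot be told apart from that of differentiation.

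Acly encodes ATP citrate lyase, which makes acetyl-CoA outside mitochondria for lipid synthesis and histone acetylation. Adipokines mark a mature fat cell: adiponectin, resistin and adipsin are switched on late in differentiation, under PPARgamma and C/EBPalpha, and are then among the most abundant messages of the cell. Adiponectin raises insulin sensitivity, leptin reports fat stores to the brain, chemerin attracts immune cells, and retinol-binding protein carries vitamin A. Other proteins that fat cells release, such as the NAD-making enzyme Nampt, are made by nearly every cell.

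Expression is given in FPKM, in which fragments are divided by transcript length and by the number mapped, so that levels can be compared between genes. The table holds no value under 0.01 FPKM, and 9384 to 10418 genes per library sit on that floor. Depth, estimated from the steps between low values, was 7.08 to 13.8 (in units of 1e6 fragments) and differed by up to 1.93-fold. Relative to the shallowest library the 3 Acly-/- adipocyte libraries had depths of 1.27 to 1.55, against 1.51 to 1.93 for the 3 Aclyf/f adipocyte libraries. Acly stood at 13.2, 12.8 and 11.0 FPKM in Acly-/- adipocytes, against 814, 722 and 724 FPKM in Aclyf/f adipocytes, a difference of -5.82 on the log2(FPKM + 1) scale (SE 0.08, limma adjusted p = 8.05e-15). In preadipocytes it stood at 11.9, 12.5 and 11.9 FPKM in Acly-/- libraries, against 89.5, 86.2 and 84.9 FPKM in Aclyf/f libraries. No Acly-/- library overlapped the Aclyf/f libraries of its stage.

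Of the 8 genes, 7 had a start in the RefSeq promoter table (build GRCm38.p6), and Rarres2 had none. The 250 bases before the start were searched on both strands for 6 motifs: TTGCNNAA, which C/EBP proteins bind, CCAAT, the TATA box TATAAA, the GC box GGGCGG, the nuclear receptor half-site AGGTCA, and the E-box CACGTG. Of 32851 promoters of the same length, these were found in 9.56%, 33.8%, 12.4%, 32.7%, 14.0% and 6.02%. Windows of 4 genes are shown: those of Adipoq and Retn, whose levels moved most alike, that of Lep, listed at the floor throughout, and that of Nampt, whose level did not separate the genotypes in adipocytes. Each is on the + strand, 5′ to 3′, and capitals mark a motif. They lie at chr16:23146286-23146535 (Adipoq), chr8:3655520-3655769 (Retn), chr6:29059971-29060219 (Lep, shown without the base next to the start) and chr12:32820085-32820334 (Nampt).
Adipoq: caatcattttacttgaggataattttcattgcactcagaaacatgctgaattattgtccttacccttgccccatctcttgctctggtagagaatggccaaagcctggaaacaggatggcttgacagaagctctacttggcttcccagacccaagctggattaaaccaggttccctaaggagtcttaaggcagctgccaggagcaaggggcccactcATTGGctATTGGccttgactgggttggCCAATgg
Retn: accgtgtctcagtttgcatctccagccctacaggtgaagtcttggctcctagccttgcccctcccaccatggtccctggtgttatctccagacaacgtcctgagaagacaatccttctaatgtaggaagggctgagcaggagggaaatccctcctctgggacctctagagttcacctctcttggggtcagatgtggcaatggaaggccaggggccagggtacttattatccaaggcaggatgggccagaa
Lep: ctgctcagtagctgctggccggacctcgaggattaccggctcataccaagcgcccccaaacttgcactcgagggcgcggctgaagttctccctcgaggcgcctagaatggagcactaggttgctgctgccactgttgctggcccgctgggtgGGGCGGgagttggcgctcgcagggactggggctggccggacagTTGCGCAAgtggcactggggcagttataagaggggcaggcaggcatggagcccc
Nampt: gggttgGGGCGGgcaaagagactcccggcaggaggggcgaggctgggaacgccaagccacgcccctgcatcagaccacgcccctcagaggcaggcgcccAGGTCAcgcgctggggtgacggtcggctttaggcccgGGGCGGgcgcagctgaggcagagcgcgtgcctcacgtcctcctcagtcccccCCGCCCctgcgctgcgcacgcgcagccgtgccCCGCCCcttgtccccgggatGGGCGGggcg
The Adipoq window held 3 CCAAT boxes, which began 34, 27 and 7 bases before the start, and none of the other 5 motifs. The Retn window held none of the 6, and neither did that of Cfd. Lep had the palindrome TTGCGCAA, 55 bases before its start, which matches the C/EBP motif on both strands, and 1 GC box. Nampt had 5 GC boxes and 1 half-site, in a window of 75.6% G and C, against 48.8% for Adipoq and 54.8% for Retn. Rbp4 had 2 starts: 1 CCAAT box lay before the first, and a C/EBP motif, a TATA box and 2 GC boxes lay before the second. Lrg1 had 1 CCAAT box. These matches describe letters in the window and not sites that a factor was shown to use.

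Loss of Acly went with low adipokine levels at day 4. In Acly-/- adipocytes 6 of the 7 genes tested fell and none rose, relative to Aclyf/f adipocytes. The call of Rarres2 among the 6 did not hold when 1 Acly-/- adipocyte library was left out. Lrg1 passed the filter of 1 FPKM in 3 or more libraries mainly through Aclyf/f adipocytes, so its fall is not independent of that filter. Of all 11777 genes tested, 54.8% were called in this comparison at a limma adjusted p under 0.05, 25.6% higher and 29.2% lower. The median log2 difference was -3.80 over the 7 genes and -0.02 over all genes tested. Because the 7 were chosen with earlier results of these data known, these medians are a description. Resistin, adiponectin, adipsin, Rbp4 and Lrg1 stood at 2.75% to 11.2% of their control level, while Rarres2 stood at 72.4% and Nampt was not called. Levels per cell were not measured: in bulk samples, fewer adipocytes and less adipokine RNA in each adipocyte cannot be told apart.

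**Figure D1:**
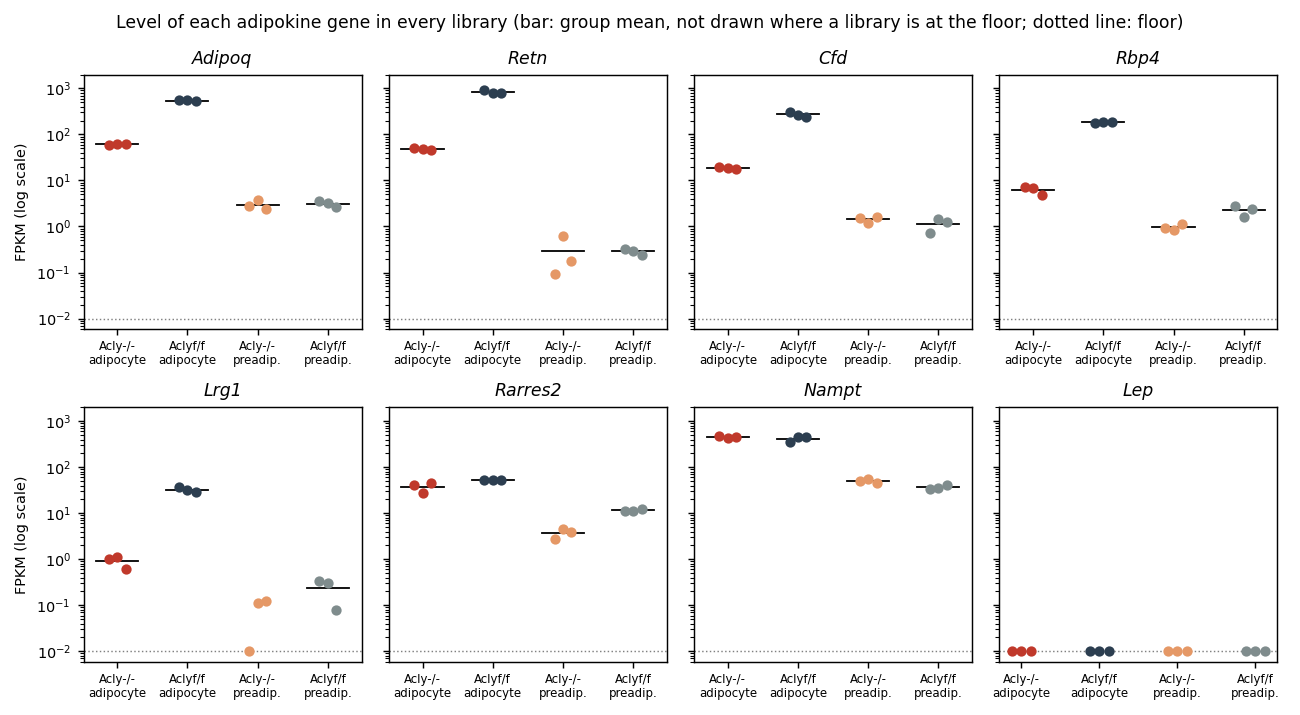
Level of each of the 8 adipokine genes in FPKM on a log axis, 1 point per library and a bar for the group mean where no library is at the floor of 0.01 FPKM (dotted line). Adipoq, Retn, Cfd, Rbp4 and Lrg1 are far lower in Acly-/- adipocytes than in Aclyf/f adipocytes, Nampt overlaps between them, and Lep lies on the floor in all 12 libraries.

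Adipoq (chr16:23146536-23157968, + strand, 3 exons) encodes adiponectin, the insulin-sensitising hormone that circulates as large multimers. It stood at 59.5, 60.7 and 62.0 FPKM in Acly-/- adipocytes, against 546, 549 and 536 FPKM in Aclyf/f adipocytes. Preadipocytes held little of it, at 2.85, 3.68 and 2.43 FPKM in Acly-/- libraries and 3.55, 3.18 and 2.68 FPKM in Aclyf/f libraries. Both adipocyte groups thus stood clear of both preadipocyte groups and of each other, and the preadipocyte groups overlapped. Adiponectin was 8.95-fold lower in Acly-/- adipocytes (log2 difference -3.14, SE 0.10, limma adjusted p = 7.25e-11). Among preadipocytes the difference was -0.06 (95% interval -0.28 to 0.17, limma adjusted p = 0.687).

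Retn (chr8:3655770-3659818, + strand) encodes resistin, which in mice is made by fat cells and opposes insulin, while in humans it comes mainly from macrophages. It was the most abundant of the 8 in Aclyf/f adipocytes. Its level was 51.5, 48.1 and 46.9 FPKM in Acly-/- adipocytes, against 938, 786 and 809 FPKM in Aclyf/f adipocytes. No library of one group came near the other, and the difference was 17.3-fold (log2 difference -4.08, SE 0.13, limma adjusted p = 3.74e-11). In preadipocytes it was barely detected, at 0.092 to 0.626 FPKM in Acly-/- libraries and 0.236 to 0.328 FPKM in Aclyf/f libraries. Those values rest on an estimated 0.9 to 5.2 fragments, so no fold against preadipocytes is given. Ranked by level among all 24341 genes, resistin was 1837th in Acly-/- adipocytes and 80th in Aclyf/f adipocytes. The related genes Retnlb and Retnlg were at the floor in all 12 libraries, and Retnla in all but 1, where it stood at 0.252 FPKM.

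Cfd (chr10:79890853-79892655, + strand, 5 exons) encodes adipsin, or complement factor D, the serine protease that starts the alternative complement pathway by cutting factor B. It stood at 19.4, 18.4 and 17.9 FPKM in Acly-/- adipocytes, against 313, 259 and 245 FPKM in Aclyf/f adipocytes. It was thus 14.6-fold lower without Acly, with no overlap (log2 difference -3.80, SE 0.13, limma adjusted p = 8.68e-11). Preadipocytes held 1.45 ± 0.217 FPKM without Acly and 1.14 ± 0.38 FPKM with it (SD, n = 3 libraries each), and these groups overlapped (log2 difference 0.21, limma adjusted p = 0.215). The table lists Cfd under a locus of 672333 bases that it shares with 48 other entries, so how fragments were divided between these genes bears on its value.

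Rbp4 (chr19:38116620-38125321, − strand, 6 exons) encodes the plasma carrier of retinol, made by liver and fat. Rbp4 and Rarres2 were the 2 genes of the 8 that were called lower without Acly at both stages. In Acly-/- adipocytes it stood at 7.19, 6.82 and 4.8 FPKM, against 176, 187 and 187 FPKM in Aclyf/f adipocytes. This 29.3-fold difference was the third largest fall on the log2 scale of the 11777 genes tested (log2 difference -4.68, SE 0.15, limma adjusted p = 4.38e-11). In preadipocytes it stood at 0.938, 0.855 and 1.13 FPKM without Acly, against 2.84, 1.59 and 2.38 FPKM with it. The preadipocyte groups did not overlap either, at a 2.33-fold lower level without Acly (log2 difference -0.71, SE 0.15, limma adjusted p = 0.00157), on an estimated 5.8 to 28.2 fragments per library.

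Lrg1 (chr17:56119678-56121946, − strand, 2 exons) encodes a leucine-rich glycoprotein that acts on TGF-beta signalling through endoglin. It had the largest fold of the 8. The levels were 0.992, 1.1 and 0.604 FPKM in Acly-/- adipocytes, against 36.5, 31.9 and 29.4 FPKM in Aclyf/f adipocytes, a 36.3-fold difference (log2 difference -4.15, SE 0.13, limma adjusted p = 3.7e-11). The Acly-/- values rest on an estimated 8.9 to 17.0 fragments per library. Because Lrg1 passed the filter mainly through Aclyf/f adipocytes, this fall and its p-value are not independent of that filter. Preadipocytes were close to undetected, at 0.01, 0.11 and 0.121 FPKM in Acly-/- libraries and 0.341, 0.305 and 0.0799 FPKM in Aclyf/f libraries, at most 3.4 fragments, and no fold is given there.

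Rarres2 (chr6:48569696-48572845, − strand, 6 exons) encodes chemerin, a chemoattractant that is activated by cutting outside the cell and binds Cmklr1. It stood at 40.2, 27.9 and 45.3 FPKM in Acly-/- adipocytes, against 52.4, 52.3 and 52.0 FPKM in Aclyf/f adipocytes. All 3 Acly-/- libraries were lower, by 1.38-fold in the mean (log2 difference -0.48, SE 0.16, limma adjusted p = 0.0184). That call rests on 1 library: without Acly-/- adipocyte replicate 2 the difference was -0.28 (limma adjusted p = 0.0913). In preadipocytes the levels were 2.81, 4.57 and 3.86 FPKM without Acly, against 11.0, 11.3 and 12.3 FPKM with it. Chemerin was thus 3.08-fold lower before differentiation (log2 difference -1.42, SE 0.16, limma adjusted p = 9.25e-06), the largest preadipocyte difference of the 8. Its last exons share 328 bases with Lrrc61 on the other strand and the table lists both under 1 locus, so without strand their reads cannot be told apart there. Lrrc61 averaged 4.36 ± 0.523 FPKM in Acly-/- adipocytes and 6.46 ± 0.334 FPKM in Aclyf/f adipocytes, and 2.24 ± 0.153 FPKM in Acly-/- preadipocytes and 2.06 ± 0.39 FPKM in Aclyf/f preadipocytes (SD, n = 3 each). Its part in the Rarres2 values was not tested.

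Nampt (chr12:32820335-32853369, + strand, 11 exons) encodes the enzyme that sets the rate of NAD salvage from nicotinamide, and is also released from cells. In Acly-/- adipocytes it stood at 486, 429 and 452 FPKM, against 362, 447 and 449 FPKM in Aclyf/f adipocytes, and the groups overlapped. The log2 difference was 0.12 with a 95% interval of -0.10 to 0.35 (limma adjusted p = 0.332), so a fall of the size seen for the other genes lies outside that interval. In preadipocytes Nampt was 1.38-fold higher without Acly, at 50.9, 55.1 and 44.9 FPKM against 33.3, 35.6 and 40.4 FPKM with it (log2 difference 0.45, SE 0.10, limma adjusted p = 0.00337).

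Lep (chr6:29060221-29073876, + strand, 3 exons) encodes leptin, the hormone that reports fat stores and is known to be made weakly by fat cells in culture. It was listed at the floor of 0.01 FPKM in all 12 libraries and was not tested. One fragment would have been worth 0.0222 to 0.0433 FPKM at these depths, and 3 fragments, the limit that a count of 0 allows for counting error, 0.0667 to 0.13 FPKM. An entry at the floor can be a failed estimate. Of 82 ribosomal protein genes 79 were above it in every library, which does not decide the matter for leptin. For leptin a true 0 and a failed estimate cannot be told apart in this table.

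The order of the 8 genes differed between the genotypes at day 4. In Acly-/- adipocytes the order of mean level was Nampt 455, Adipoq 60.7, Retn 48.8, Rarres2 37.8, Cfd 18.6, Rbp4 6.27 and Lrg1 0.897 FPKM. In Aclyf/f adipocytes it was Retn 844, Adipoq 544, Nampt 419, Cfd 272, Rbp4 183, Rarres2 52.2 and Lrg1 32.6 FPKM. Summed over the 8, the level was 665, 592 and 629 FPKM in Acly-/- adipocytes, against 2420, 2310 and 2310 FPKM in Aclyf/f adipocytes. Nampt made up 72.5% of that sum in Acly-/- adipocytes and 17.9% in Aclyf/f adipocytes. Together the 8 took 0.112% to 0.125% of all FPKM in Acly-/- adipocytes and 0.459% to 0.463% in Aclyf/f adipocytes.

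**Figure D2:**
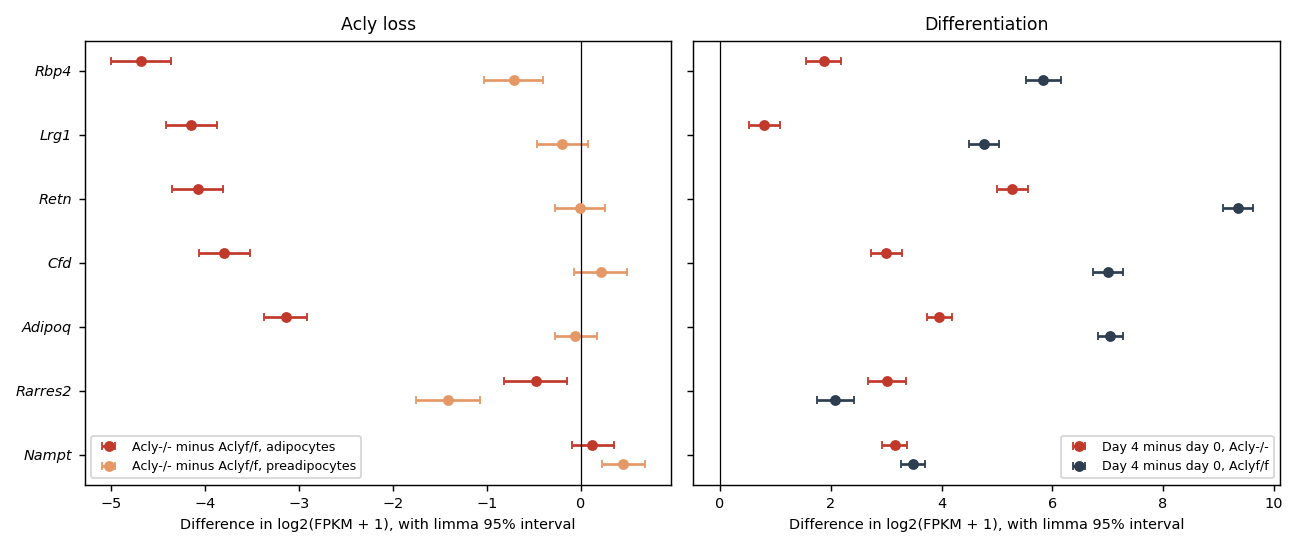
Differences in log2(FPKM + 1) with limma 95% intervals for the 7 adipokine genes tested, for Acly loss (left) and for day 4 minus day 0 (right). At left the 5 genes from Rbp4 to Adipoq lie between -4.68 and -3.14 in adipocytes, while in preadipocytes Rarres2 has the largest difference (log2 difference -1.42). At right every gene lies above 0 in both genotypes.

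In preadipocytes the genotypes differed in 3 of the 7 genes. Nampt was higher without Acly, Rbp4 and Rarres2 were lower, and 4 were not called, where 42.2% of all genes tested were called (19.7% higher and 22.4% lower). The median difference was -0.06 over the 7 and -0.01 over all genes tested. Adipoq, Retn, Cfd and Lrg1, which fell at day 4, had differences of -0.06, -0.01, 0.21 and -0.20 here. For Retn and Lrg1 the depth limits what could be seen.

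All 7 genes tested rose with differentiation in both genotypes. Retn and Lrg1 stayed under 1 FPKM in every preadipocyte library, so they passed the filter through adipocyte libraries alone. Their rise is thus not independent of that filter. In Acly-/- cells 7 of 7 rose, where 61.4% of all genes tested were called (30.4% higher and 31.0% lower), with a median difference of 3.02 against 0.00 over all genes. In Aclyf/f cells 7 of 7 rose as well, where 72.5% were called (36.5% higher and 36.0% lower), with a median of 5.84. Adiponectin rose 20.3-fold in Acly-/- cells (log2 difference 3.96, limma adjusted p = 1.84e-12) and 174-fold in Aclyf/f cells (log2 difference 7.05, limma adjusted p = 3.13e-15). Adipsin rose 12.8-fold in Acly-/- cells and 239-fold in Aclyf/f cells, and Rbp4 rose 6.43-fold in Acly-/- cells and 80.8-fold in Aclyf/f cells. For resistin the log2 difference was 5.28 in Acly-/- cells and 9.36 in Aclyf/f cells, which in Aclyf/f cells was the largest rise of all 11777 genes tested on the log2(FPKM + 1) scale. Lrg1 rose by 0.80 in Acly-/- cells (SE 0.13, limma adjusted p = 8.44e-05) and by 4.76 in Aclyf/f cells on the same scale. Nampt rose 9.05-fold in Acly-/- cells and 11.5-fold in Aclyf/f cells. Chemerin had the larger rise without Acly, at 10.1-fold in Acly-/- cells and 4.52-fold in Aclyf/f cells.

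The difference between the 2 differentiation contrasts was tested as well. With Acly-/- minus Aclyf/f as the direction, 5 of 7 were lower, 1 was higher and 1 was not called, where 50.2% of all genes tested were called (23.7% higher and 26.4% lower). Lrg1 passed the filter mainly through Aclyf/f adipocytes, so its place among the 5 is not independent of that filter. The lower ones were Retn (log2 difference -4.07, SE 0.18, limma adjusted p = 2.54e-09), Cfd (log2 difference -4.00), Rbp4 (log2 difference -3.97), Lrg1 (log2 difference -3.95) and Adipoq (log2 difference -3.08, SE 0.15, limma adjusted p = 4.67e-09). Retn and Lrg1 lay under 1 FPKM in every preadipocyte library, where log2(FPKM + 1) leaves little room for a difference. For both, the test largely repeats the adipocyte difference (-4.08 for Retn and -4.15 for Lrg1). For Rarres2 the difference was 0.94 (SE 0.22, limma adjusted p = 0.00351), with its lower start in Acly-/- preadipocytes. For Nampt it was -0.33 (SE 0.15, limma adjusted p = 0.0781), and leaving out any 1 of 3 libraries brought it past the threshold. It was -0.41 without Acly-/- preadipocyte replicate 3 (limma adjusted p = 0.034), -0.40 without Aclyf/f preadipocyte replicate 3 (limma adjusted p = 0.0437) and -0.43 without Aclyf/f adipocyte replicate 1 (limma adjusted p = 0.0186). This contrast uses all 12 libraries, which the other comparisons share.

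Adipocyte markers were also lower without Acly at day 4. Of 14 markers, all of them tested, 12 fell in Acly-/- adipocytes and none rose, where 25.6% of all genes tested were higher and 29.2% lower. The median log2 difference of the 14 was -1.01. The largest falls were in Gpd1, the glycerol-phosphate dehydrogenase (4.57 ± 0.446 FPKM in Acly-/- adipocytes and 80.0 ± 3.66 FPKM in Aclyf/f adipocytes, SD, n = 3 each), Car3, a carbonic anhydrase of fat and muscle (log2 difference -3.50), and Slc2a4, the insulin-responsive glucose transporter GLUT4 (log2 difference -2.91). The lipid droplet coat gene Plin1 averaged 98.4 ± 6.8 FPKM in Acly-/- adipocytes and 196 ± 12.7 FPKM in Aclyf/f adipocytes (log2 difference -0.98, limma adjusted p = 8.07e-05). The fatty acid binding protein Fabp4 averaged 6110 ± 702 FPKM in Acly-/- adipocytes and 8840 ± 405 FPKM in Aclyf/f adipocytes. The summed level of the 14 was 6940 to 8510 FPKM in Acly-/- adipocytes, 11400 to 12300 FPKM in Aclyf/f adipocytes, 623 to 684 FPKM in Acly-/- preadipocytes and 1040 to 1100 FPKM in Aclyf/f preadipocytes. Fabp4 made up most of this sum in both adipocyte groups. Both groups labelled adipocyte thus held far more of these markers than either group labelled preadipocyte.

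Set against Plin1 in the same library, 5 of the adipokines were still low without Acly, but for 3 of them this depended on the marker chosen. Adiponectin was 56.5%, 66.2% and 63.2% of the Plin1 level in Acly-/- adipocytes, against 260%, 295% and 282% in Aclyf/f adipocytes. Resistin was 47.8% to 52.4% of it in Acly-/- adipocytes and 421% to 447% in Aclyf/f adipocytes, and adipsin 18.2% to 20.1% in Acly-/- adipocytes and 129% to 149% in Aclyf/f adipocytes. Rbp4 was 4.89% to 7.44% of it in Acly-/- adipocytes and 83.6% to 100% in Aclyf/f adipocytes, and Lrg1 0.616% to 1.2% in Acly-/- adipocytes and 15.5% to 17.4% in Aclyf/f adipocytes. Per Plin1 the other 2 lay the other way, with Rarres2 at 30.4% to 46.2% in Acly-/- adipocytes and 24.9% to 28.0% in Aclyf/f adipocytes, and Nampt at 461% to 467% in Acly-/- adipocytes and 172% to 240% in Aclyf/f adipocytes. Per Fabp4, adiponectin was 0.922% to 1.14% in Acly-/- adipocytes and 5.92% to 6.43% in Aclyf/f adipocytes. Rarres2 per Fabp4 overlapped between the genotypes, at 0.522% to 0.675% in Acly-/- adipocytes and 0.563% to 0.617% in Aclyf/f adipocytes. With each of the 14 markers as the divisor, a choice made after seeing the data, Rbp4 and Lrg1 were lower in all 3 Acly-/- libraries against 14 of 14. Resistin was lower against 13 and overlapped against Gpd1. Adipsin was lower against 12, overlapped against Car3 and was higher against Gpd1, at 389% to 448% in Acly-/- adipocytes and 312% to 372% in Aclyf/f adipocytes. Adiponectin was lower against 11, overlapped against Slc2a4 and was higher against Gpd1 (1190% to 1480% in Acly-/- adipocytes and 649% to 710% in Aclyf/f adipocytes) and Car3 (1110% to 1620% in Acly-/- adipocytes and 733% to 926% in Aclyf/f adipocytes). Nampt was higher against 12 and overlapped against 2, and Rarres2 was higher against 8, lower against 1 and overlapped against 5.

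**Figure D3:**
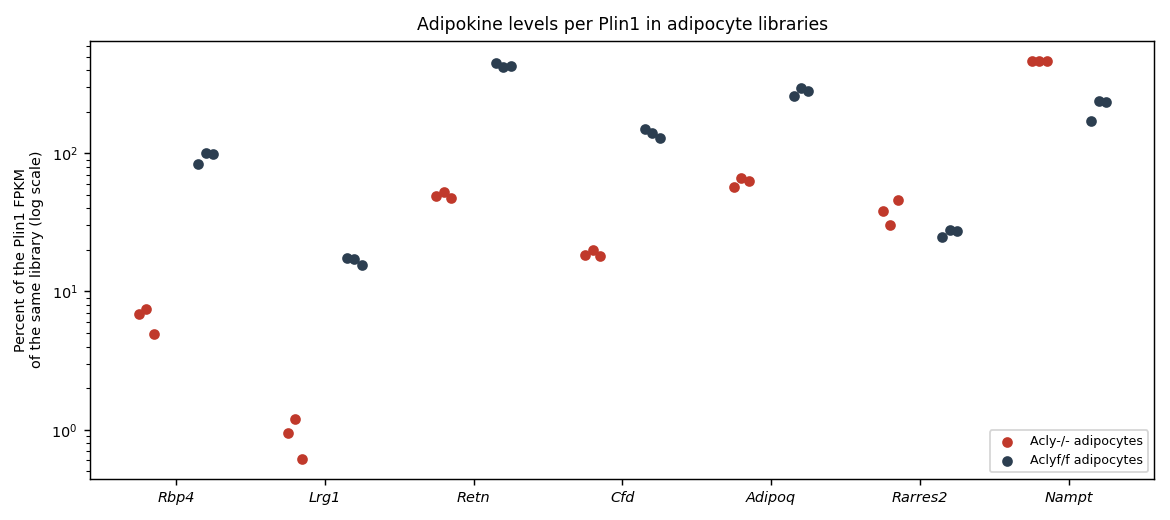
Level of each adipokine gene as a percent of the Plin1 FPKM of the same adipocyte library, on a log axis, 1 point per library. Adipoq, Retn, Cfd, Rbp4 and Lrg1 lie lower in all 3 Acly-/- libraries than in all 3 Aclyf/f libraries, and Rarres2 and Nampt lie higher.

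Of the markers of other cells, several of preadipocytes and the macrophage marker Cd68 were called in adipocytes. The part of other cell types in the adipokine differences was not tested. Of 12 preadipocyte markers 7 were tested, and 5 were higher and none lower in Acly-/- adipocytes, where 25.6% of all genes tested were higher and 29.2% lower. The largest rise was in Ly6a, the Sca-1 antigen of progenitors (649 ± 27.1 FPKM in Acly-/- adipocytes and 128 ± 34.2 FPKM in Aclyf/f adipocytes, SD, n = 3 each). The summed level of the 12 was 892 to 944 FPKM in Acly-/- adipocytes, 262 to 319 FPKM in Aclyf/f adipocytes, 1090 to 1380 FPKM in Acly-/- preadipocytes and 972 to 1050 FPKM in Aclyf/f preadipocytes. Ly6a made up most of this sum in Acly-/- adipocytes. Of 16 macrophage and leukocyte markers 15 were in the table and 2 were tested. Cd68, a lysosomal protein, was higher (32.6 ± 3.12 FPKM in Acly-/- adipocytes and 1.5 ± 0.344 FPKM in Aclyf/f adipocytes), and it made up most of a summed level of 31.1 to 37.4 FPKM in Acly-/- adipocytes, 3.36 to 4.01 FPKM in Aclyf/f adipocytes, 5.1 to 8.48 FPKM in Acly-/- preadipocytes and 4.74 to 7.69 FPKM in Aclyf/f preadipocytes. Ptprc, which all leukocytes carry, was at the floor in all 12 libraries, as were Itgam and S100a9, and Adgre1 was at the floor in all but 1. Of 10 endothelial markers 2 were tested, neither was called in adipocytes, and their summed level was 4.51 to 6.93 FPKM in Acly-/- adipocytes and 4.44 to 7.16 FPKM in Aclyf/f adipocytes. Of 10 mesothelial and epithelial markers 9 were in the table and 1 was tested, Krt19, which was not called in adipocytes, and their summed level was 0.696 to 1.19 FPKM in Acly-/- adipocytes and 0.447 to 0.718 FPKM in Aclyf/f adipocytes. Of 7 hepatocyte markers none was tested, their summed level was 0.492 to 1.67 FPKM in Acly-/- adipocytes and 1.79 to 3.23 FPKM in Aclyf/f adipocytes, and Ttr and Serpina1a were at the floor in all 12 libraries.

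Regulators that act on adipokine genes did not move as one. Of 19, 18 were tested, with a median log2 difference of -0.17 in Acly-/- adipocytes. There 4 were higher, 8 lower and 6 not called, where 25.6% of all genes tested were higher and 29.2% lower. Mlxipl, which encodes the glucose-sensing factor ChREBP, fell to 2.07 ± 0.187 FPKM in Acly-/- adipocytes, against 27.4 ± 0.155 FPKM in Aclyf/f adipocytes (SD, n = 3 each). The STAT5 genes Stat5a (log2 difference -1.38, limma adjusted p = 6.82e-09) and Stat5b (log2 difference -1.28) fell as well, as did Cebpa, at 76.1 ± 13.1 FPKM in Acly-/- adipocytes and 135 ± 17.3 FPKM in Aclyf/f adipocytes (log2 difference -0.82, limma adjusted p = 0.000287). Pparg, the main switch of fat cell genes, was at 148 ± 13.7 FPKM in Acly-/- adipocytes and 161 ± 1.18 FPKM in Aclyf/f adipocytes and was not called (log2 difference -0.13, limma adjusted p = 0.208). The early C/EBP gene Cebpd was higher in Acly-/- adipocytes (48.3 ± 1.88 FPKM) than in Aclyf/f adipocytes (25.9 ± 4.86 FPKM), and Ebf1 (log2 difference 0.51) and the Mediator subunit Med1 (log2 difference 0.29) were higher too. Cebpa and Pparg were picked after their values were seen, since they regulate several adipokines.

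**Figure D4:**
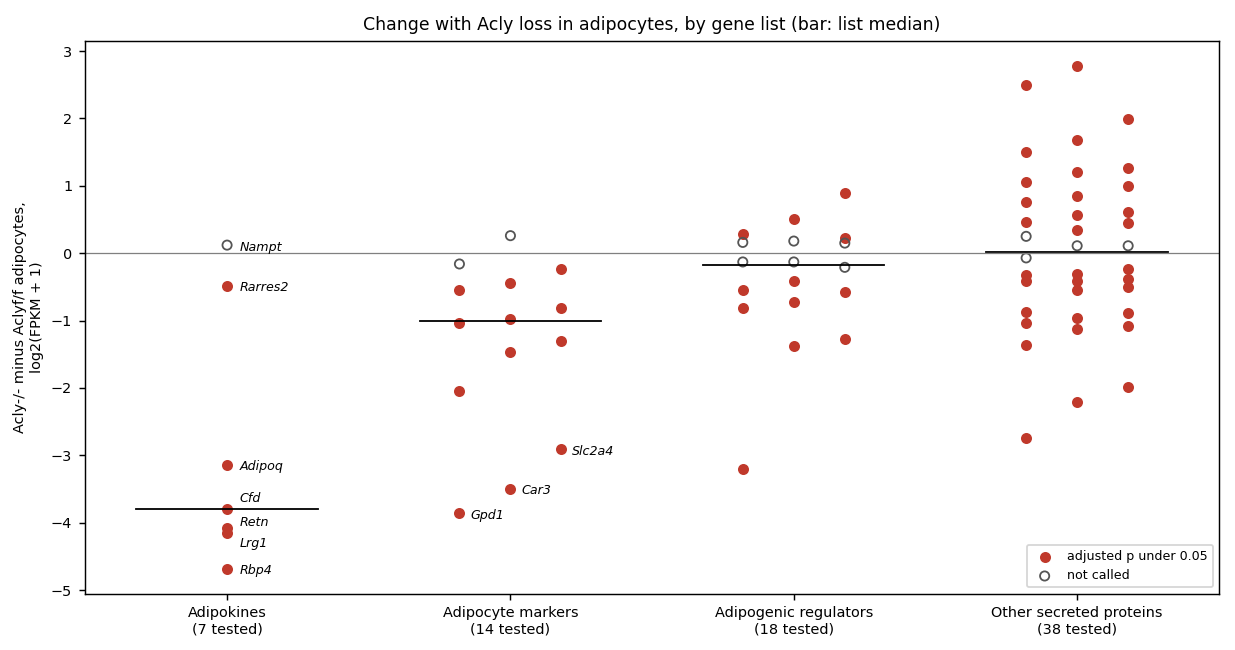
Difference in log2(FPKM + 1) between Acly-/- and Aclyf/f adipocytes for each gene tested in 4 lists, with filled points for an adjusted p under 0.05 and a bar at the list median. The adipokine median is -3.80, that of adipocyte markers -1.01, that of regulators -0.17 and that of other secreted proteins 0.02. Lpl is in both the list of adipocyte markers and that of other secreted proteins. The lists were chosen with earlier results of these data known, so the medians are a description.

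Of 56 genes on a list of other secreted adipocyte proteins 38 were tested, and 16 rose, 18 fell and 4 were not called in Acly-/- adipocytes, where 25.6% of all genes tested were higher and 29.2% lower. Among those that fell were Zfp36 (log2 difference -0.54), whose protein acts inside the cell, and Lpl, which is also counted among the adipocyte markers. The median log2 difference was 0.02, against -0.02 over all genes tested. The largest falls were in Apoc1, an apolipoprotein (42.2 ± 8.13 FPKM in Acly-/- adipocytes and 287 ± 36.8 FPKM in Aclyf/f adipocytes, SD, n = 3 each), Orm1, an acute-phase glycoprotein (20.2 ± 0.139 FPKM in Acly-/- adipocytes and 97.4 ± 8.12 FPKM in Aclyf/f adipocytes), and Gm6484, an older symbol of the lipase inhibitor gene Angptl8 (6.0 ± 1.06 FPKM in Acly-/- adipocytes and 26.7 ± 4.03 FPKM in Aclyf/f adipocytes). The largest rises were in Saa3, a serum amyloid (20.4 ± 2.37 FPKM in Acly-/- adipocytes and 2.22 ± 1.05 FPKM in Aclyf/f adipocytes), the chemokine Ccl2 (12.5 ± 2.51 FPKM in Acly-/- adipocytes and 1.37 ± 0.276 FPKM in Aclyf/f adipocytes), and the stress cytokine Gdf15 (107 ± 1.9 FPKM in Acly-/- adipocytes and 26.2 ± 2.74 FPKM in Aclyf/f adipocytes). Ccl2 was abundant in preadipocytes of both genotypes, at 243 ± 7.01 FPKM without Acly and 233 ± 7.19 FPKM with it.

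Several receptors and binding partners of the adipokines were listed at or near the floor. Of 20 on the list 9 were tested, and 3 were higher and 2 lower in Acly-/- adipocytes, where 25.6% of all genes tested were higher and 29.2% lower. The median log2 difference of the 9 was 0.03. The adiponectin receptor Adipor1 averaged 68.8 ± 2.0 FPKM in Acly-/- adipocytes and 75.9 ± 3.98 FPKM in Aclyf/f adipocytes and was not called (log2 difference -0.14, limma adjusted p = 0.108), and the second adiponectin receptor, Adipor2, averaged 31.2 ± 0.547 FPKM in Acly-/- adipocytes and 40.8 ± 1.11 FPKM in Aclyf/f adipocytes (log2 difference -0.38, limma adjusted p = 0.000115). Cdh13, the T-cadherin that binds large adiponectin multimers, was higher in Acly-/- adipocytes, at 2.11, 1.88 and 1.35 FPKM against 0.21, 0.395 and 0.481 FPKM in Aclyf/f adipocytes. Endoglin, Eng, through which Lrg1 acts, was higher (15.6 ± 1.27 FPKM in Acly-/- adipocytes and 10.4 ± 1.76 FPKM in Aclyf/f adipocytes), as was the TGF-beta receptor Tgfbr2 (log2 difference 0.54), and the insulin receptor Insr was lower (log2 difference -0.83). The leptin receptor Lepr, the chemerin receptors Cmklr1 and Gpr1, the retinol-uptake receptor Stra6 and the partner of Rbp4 in plasma, Ttr, lay at or near the floor, with no group mean above 0.0737 FPKM. Stra6l, a gene like Stra6, was not tested, and lay at 0.247 to 0.366 FPKM in Acly-/- adipocytes and at the floor in all Aclyf/f adipocyte libraries. Ccrl2, which binds chemerin, was not tested, and lay at 0.272 to 0.371 FPKM in Acly-/- adipocytes and 0.01 to 0.165 FPKM in Aclyf/f adipocytes. In preadipocytes Ccrl2 lay at 0.991 to 1.15 FPKM without Acly and 0.208 to 0.355 FPKM with it.

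Of 12 genes for folding and release of adiponectin 11 were tested, with 6 higher and 3 lower in Acly-/- adipocytes, where 25.6% of all genes tested were higher and 29.2% lower, and a median log2 difference of 0.35. The chaperones and disulfide isomerases P4hb (633 ± 25.4 FPKM in Acly-/- adipocytes and 369 ± 0.41 FPKM in Aclyf/f adipocytes, SD, n = 3 each), Hspa5 (482 ± 32.5 FPKM in Acly-/- adipocytes and 308 ± 5.67 FPKM in Aclyf/f adipocytes) and Pdia6 (log2 difference 0.55) were higher. Ero1l, the oxidase that frees adiponectin from its retention partner Erp44, was lower, at 312, 249 and 224 FPKM in Acly-/- adipocytes against 506, 786 and 768 FPKM in Aclyf/f adipocytes (log2 difference -1.37, limma adjusted p = 6.74e-06). In preadipocytes Ero1l was higher without Acly (65.7 ± 3.24 FPKM in Acly-/- preadipocytes and 18.9 ± 1.98 FPKM in Aclyf/f preadipocytes). Sel1l, of the disposal of misfolded proteins, and Gga1, a sorting adaptor, were lower at day 4 (-0.49 and -0.35).

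Of 16 complement genes other than Cfd, the gene of adipsin, 10 were tested. In Acly-/- adipocytes 5 were higher and 2 lower, where 25.6% of all genes tested were higher and 29.2% lower. In Acly-/- preadipocytes 1 was higher and 9 were lower, where 19.7% of all were higher and 22.4% lower. In the difference between the differentiation contrasts 9 were higher and none lower, where 23.7% of all were higher and 26.4% lower. C3, the central component, fell to 104 ± 8.61 FPKM in Acly-/- adipocytes, against 282 ± 13.7 FPKM in Aclyf/f adipocytes (log2 difference -1.44, limma adjusted p = 2.15e-08), and was also lower in Acly-/- preadipocytes (1.11 ± 0.227 FPKM) than in Aclyf/f preadipocytes (8.0 ± 0.348 FPKM). Cfb, the factor B that adipsin cuts, was higher in Acly-/- adipocytes (8.22 ± 0.587 FPKM) than in Aclyf/f adipocytes (2.18 ± 0.447 FPKM), and so were C1ra (log2 difference 1.18) and C4b (log2 difference 0.80) of the classical pathway.

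Around Rbp4, 10 of 22 retinoid genes were tested, with a median log2 difference of -0.07 in Acly-/- adipocytes. None was higher and 2 were lower there, where 25.6% of all genes tested were higher and 29.2% lower. The 2 were the retinal reductase Dhrs3 (41.4 ± 1.88 FPKM in Acly-/- adipocytes and 66.9 ± 2.09 FPKM in Aclyf/f adipocytes) and the retinol saturase Retsat (log2 difference -0.32). In Acly-/- preadipocytes 3 were higher and 6 lower, where 19.7% of all genes tested were higher and 22.4% lower. The largest fall there was in Aldh1a2, a retinaldehyde dehydrogenase (2.72 ± 0.344 FPKM in Acly-/- preadipocytes and 20.0 ± 0.373 FPKM in Aclyf/f preadipocytes).

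Around Nampt, 15 of 21 genes of NAD synthesis and use were tested, with a median log2 difference of -0.24 in Acly-/- adipocytes. There 3 were higher and 7 lower, where 25.6% of all genes tested were higher and 29.2% lower. Naprt, the entry enzyme of the parallel route from nicotinic acid, was lower (1.08 ± 0.141 FPKM in Acly-/- adipocytes and 3.86 ± 0.636 FPKM in Aclyf/f adipocytes, SD, n = 3 each), and so were the mitochondrial deacetylase Sirt3 (4.93 ± 0.571 FPKM in Acly-/- adipocytes and 10.9 ± 0.824 FPKM in Aclyf/f adipocytes) and the mitochondrial NAD kinase Nadk2 (log2 difference -0.88). Of the enzymes that act next after Nampt, Nmnat1 was at 8.88 ± 1.06 FPKM in Acly-/- adipocytes and 9.93 ± 0.999 FPKM in Aclyf/f adipocytes (log2 difference -0.15, limma adjusted p = 0.273) and Nmnat3 was lower (log2 difference -0.26, limma adjusted p = 0.0444). The transhydrogenase Nnt (log2 difference 0.54), the nicotinamide methyltransferase Nnmt (log2 difference 0.51) and the deacetylase Sirt1 (log2 difference 0.36) were higher.

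Profiles over the 12 libraries were compared with all genes tested, by Pearson's r of log2(FPKM + 1). Because the libraries form 4 groups, any gene with the same 4 levels scores high, and r is given as a description. Adipoq and Retn were each other's closest match of all genes (r = 0.9995), followed for both by Slc2a4 and A530016L24Rik. For Cfd the closest were Cs, Adora1 and Scd3 (0.9987 to 0.9974). For Rbp4 they were Cmbl, Dusp18 and Epb4.1l5 (0.9963 to 0.9954), and for Lrg1 Mcam, Uck1 and Slc25a34 (0.9969 to 0.9965). Rarres2 had the loosest match, with Prickle1, Tcf7l1 and Gprc5b (0.986 to 0.9851), and Nampt was nearest to Abhd5, Pld1 and Nabp1 (0.9978 to 0.9965). Among the adipokines themselves r was highest between Adipoq and Retn and lowest between Lrg1 and Nampt (0.656), with 0.990 for Rbp4 and Lrg1 and 0.910 for Adipoq and Nampt.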

How the data were processed

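Per the labels' protocols, Trizol was used for RNA and an Illumina TruSeq kit for libraries. Cufflinks 2.2.1, Bowtie2 2.2.6 and bcl2fastq are listed, with the build mm10, per the submitters' processing notes. The authors deposited FPKM, per the file headers, and each of the 12 columns was matched to its library by name. What filter, gene annotation and strand setting the table rests on is not given in the sources used here. Counts are not part of the table, so depth was estimated from the steps of values under 0.3 FPKM. Relative depth used all genes, and depth in fragments used genes with a single annotated transcript of 3000 bases or more. On simulated data the relative depths came out within 0.058%. No such error is given for depth in fragments, on which the estimated fragments per library rest. The simulation used the same mean profile in all libraries and known lengths, so it does not give the error for the deposited values.

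The FPKM were transformed as log2(FPKM + 1), a scale on which the change of a low gene is understated. A gene entered the test if 3 or more of the 12 libraries reached 1 FPKM, which kept 11777 genes and left out 12564. limma 3.58.1 (R 4.3.3) was fitted to all 4 groups, without a block, with a variance prior that follows a trend. Within each contrast the Benjamini-Hochberg adjustment ran over the whole set of tested genes, with calls made at an adjusted p under 0.05. The fit was tested on simulated data. Folds are ratios of mean FPKM, and values with ± are SD over 3 libraries. Means, list counts and plots come from Python 3.11.15, numpy 2.4.6, pandas 2.3.3 and matplotlib 3.10.9. The alternatives were another pseudocount, no filter on low values, 3 other scalings, a prior without a trend, only the groups compared, a replicate block and leaving out each library.

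The genes described and the lists around them were chosen with earlier results of these data known. Named from each list were up to 3 genes with the largest called change in each direction, and known receptors, carriers and NAD enzymes whatever their values. Coordinates of genes and sequences are from RefSeq on GRCm38.p6, the assembly behind mm10, counted from 1. The labels give no sequencing batch or date. A result of the complement list is not reported here.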

Additional observations from a re-analysis of the deposited data

Results flagged for a closer look

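For 6 adipokine genes the change with Acly loss differed between adipocytes and preadipocytes, by limma's test of the difference between the 2 differentiation contrasts (Acly-/- minus Aclyf/f, on the log2(FPKM + 1) scale, 3 libraries per group). The difference was -3.08 for Adipoq, -4.07 for Retn, -4.00 for Cfd, -3.97 for Rbp4 and -3.95 for Lrg1, whose levels lay lower in every Acly-/- adipocyte library than in any Aclyf/f adipocyte library. For Rarres2 it was 0.94, in the opposite direction. Rarres2 was nevertheless lower without Acly at both stages, by less in adipocytes (log2 difference -0.48) than in preadipocytes (log2 difference -1.42). For Retn and Lrg1 the preadipocyte side of the test rests on an estimated 0.9 to 5.2 and on at most 3.4 fragments per library. For both, the test thus largely repeats the adipocyte difference. Lrg1 also passed the filter mainly through Aclyf/f adipocytes, so its difference is not independent of that filter. Groups of 3 are too small for a test of single libraries that stand apart.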

How the results depend on the processing

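Over 20 other settings, 12 of which left out 1 library each, all 396 counts of called genes compared stayed within 1.5 times their value. No difference of a single gene that was called in either fit changed direction. A change of sign where neither fit called the gene was not counted. Of 792 differences of single genes, 788 kept their side of the threshold. The exceptions were Rarres2 in adipocytes without Acly-/- adipocyte replicate 2 (-0.28, limma adjusted p = 0.0913, where the range over all settings was -0.62 to -0.28 and 0.00636 to 0.0913) and the difference between differentiation contrasts for Nampt, called without any 1 of 3 libraries (-0.43 to -0.26 over all settings, adjusted p 0.0186 to 0.182). The cause was not tested. Over the same settings the adipocyte difference lay between -3.22 and -3.13 for Adipoq, -4.26 and -4.00 for Retn, -3.88 and -3.69 for Cfd, -4.87 and -4.53 for Rbp4, and -5.07 and -4.03 for Lrg1. A fit of only the groups compared does not exist for the difference between contrasts, which needs all 4.

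Libraries with the same replicate number deviated from their group means with r of -0.414 to 0.147 over 18 pairs, 4 of them over 0.1. For 36 pairs of different groups and different numbers r was -0.168 to 0.416, so some such libraries deviated alike, and the source was not tested. None of the 12 libraries correlated best with its own number, so the numbers were not taken as pairs. With the number as a replicate block, 6 adipokines were again lower in Acly-/- adipocytes and none higher, calls over the whole table numbered 2839 higher and 3286 lower, and the block changed no call among the adipokines. Depth limits the preadipocyte values of Retn and Lrg1 and what can be said of Lep, and intervals cover the spread between libraries only.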
